A study of Mus musculus with 12 samples.

Results

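Dual-specificity MAP kinase phosphatases (MKPs) switch MAP kinases off by removing phosphate from both a threonine and a tyrosine of the kinase's activation loop. Dusp1, Dusp4, Dusp5, Dusp6 and Dusp10 were examined for binding of the glucocorticoid receptor (GR), a ligand-activated transcription factor, by chromatin immunoprecipitation sequencing (ChIP-seq) in BWTG3 cells, a mouse hepatoma line. A GR peak was taken when its centre lay within 50 kb of the mm10 span of one of these genes, or within 200 kb for Dusp10, and peaks of different libraries that shared at least 1 base were joined into a region. This gave 50 regions of 47493 in the series, built from 125 of 109273 peaks. Dusp1 had 6 regions, Dusp4 had 10, Dusp5 had 9, Dusp6 had 11 and Dusp10 had 14.

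All cells were kept for 24 h in serum-free medium before treatment. The TNFDEX group (3 libraries) received 1000 U/ml of the inflammatory cytokine tumour necrosis factor (TNF) 1 h before 1 µM of the synthetic glucocorticoid dexamethasone (Dex), the DEX group (3 libraries) received 1 µM Dex, the TNF group (2 libraries) received 1000 U/ml TNF, and the NI group (3 libraries) was taken as cells with neither agent because its title names neither. The design text calls the replicates biological, and all libraries come from 1 cell line and 1 antibody against GR. GR peaks cannot check the hepatoma label, since binding near a gene is not its expression.

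MAP kinases carry signals from cytokines and growth factors, TNF among them, and the phosphatases end those signals. Dusp1 (MKP-1) is a nuclear enzyme that inactivates p38 and JNK and is a known glucocorticoid-induced gene, through which glucocorticoids restrain inflammatory signalling. Dusp4 and Dusp5 are nuclear enzymes as well, Dusp5 being selective for ERK, while Dusp6 is the cytoplasmic ERK phosphatase and Dusp10 acts mainly on p38 and JNK. Occupancy by GR near a gene does not by itself show that the gene responds.

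The Dusp5 promoter, which is not printed, overlapped a GR peak in TNFDEX replicate 1 and in NI replicate 2. The sequences below are the promoter stretches at which a GR peak was called at Dusp1 and Dusp6. The Dusp1 start carried a peak in every library with Dex and the Dusp6 start in 1 library. Both come from the RefSeq promoter table of build GRCm38.p6 and run 5′ to 3′ on the gene's strand. The Dusp1 stretch is chr17:26508473-26508722, minus strand, the 250 bases before the annotated start, and the Dusp6 stretch is chr10:99262997-99263169, plus strand. Capitals mark a cAMP response element (CRE, TGACGTCA, which reads the same on both strands).
Dusp1 promoter: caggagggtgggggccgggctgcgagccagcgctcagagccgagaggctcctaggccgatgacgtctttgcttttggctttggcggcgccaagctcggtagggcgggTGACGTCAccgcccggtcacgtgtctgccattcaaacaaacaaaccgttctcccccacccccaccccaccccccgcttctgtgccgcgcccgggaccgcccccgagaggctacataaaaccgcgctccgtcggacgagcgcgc
Dusp6 promoter: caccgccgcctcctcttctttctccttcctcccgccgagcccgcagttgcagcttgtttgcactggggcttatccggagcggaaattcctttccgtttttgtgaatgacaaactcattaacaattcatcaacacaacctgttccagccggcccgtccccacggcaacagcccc

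Promoters of Dusp1, Dusp5, Dusp6 and Dusp10, each covering 250 bases before to 50 bases after the start, were searched on both strands for 4 motifs, of which the GR half-site can lie inside the GR element. The CRE was found only in Dusp1, 143 to 136 bases before the start, and 1.79% of all 32851 promoters of the table hold it. The GR element (GNACANNNTGTNC, 0.475% of all promoters), the GR half-site AGAACA (19.0%) and the AP-1 motif TGANTCA (7.81%) had no match in any of the 4 promoters. The share of G and C was 67.0% in Dusp1, 66.7% in Dusp5, 57.3% in Dusp6 and 61.0% in Dusp10, against a median of 52.7% over all promoters.

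Libraries held 39228805 to 51141996 tags and 2524 to 22590 called peaks. Peak height is given as the deposited normalized tag count, the tags in a peak scaled to 20000000 tags per library; over the 125 peaks at the phosphatases it ranged between 6.6 and 83.8 with a median of 16.8, against 12.7 over all peaks. Raw tags under these peaks numbered 14 to 202, with a median of 36. Each library was called on its own against 1 input, so a site without a call has an unknown level and not a level of 0. The peaks at the phosphatases numbered 32, 8 and 13 in the TNFDEX libraries, 9, 20 and 12 in the DEX libraries, 11 and 0 in the TNF libraries, and 7, 10 and 3 in the NI libraries. TNFDEX replicate 1, the library with the most peaks, held as many as DEX replicates 2 and 3 together, while TNF replicate 2 held none. No label gives a batch. The libraries were split at a share of 0.1% of tags in mitochondrial peaks, which was 0.355% to 0.541% in TNFDEX replicates 2 and 3, DEX replicate 3, TNF replicate 2 and NI replicate 3, and 0.00645% to 0.0348% in the other 6. Of the 50 regions, 30 (60.0%) were called only in libraries with the low share and 6 (12.0%) only in those with the high share, against 46.7% and 24.4% over the series. In alternative tests below, the share was a term in the fit of peak height, and peak numbers were also compared within libraries of like share. The part of this split in the calls was not tested beyond the values within each set of libraries.

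Dusp1 was the only one of the 5 genes at which every region, 6 of 6, was called in at least 2 libraries, against 52.0% of the 50 regions and 40.5% of the series. No other protein-coding gene lay in its window. Within 50 kb the TNFDEX libraries had 4, 5 and 5 peaks, the DEX libraries 2, 4 and 5, the TNF libraries 1 and 0, and the NI libraries 2, 1 and 0. The means were 4.67 ± 0.577 in TNFDEX (SD, n = 3), 3.67 ± 1.53 in DEX (SD, n = 3), 0.5 ± 0.707 in TNF (SD, n = 2) and 1.0 ± 1.0 in NI (SD, n = 3). Libraries with Dex were above those without it except at DEX replicate 1 and NI replicate 1, which both had 2.

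The peak at the Dusp1 start (chr17:26508343-26508733) was called in all libraries with Dex. Its normalized tag counts were 25.3, 24.2 and 46.1 in TNFDEX and 24.3, 31.1 and 58.2 in DEX, it was not called in either TNF library, and it stood at 16.8 in NI replicate 1 alone of the NI libraries. Every value with Dex was thus above the only value without it. Peaks overlapped the printed promoter or the 50 bases after it in 7 libraries, whereas 0.423% of all promoters had a peak in every TNFDEX library and 0.575% in every DEX library. The joined region was wider than most, 391 bp against a median of 173 bp, because the peak centres lay apart by up to 225 bp. The centre was 175, 80 and 113 bp before the start in TNFDEX, 50 bp after it and 38 and 112 bp before it in DEX, and 45 bp after it in NI replicate 1. The CRE (chr17:26508608-26508615) lay under the peaks of 3 of 3 TNFDEX libraries and 1 of 3 DEX libraries and outside the NI peak. The plot of these peaks against the start shows that the heights of the groups rest on windows that coincide only in part or not at all. The NI replicate 1 peak shared no base with those of TNFDEX replicates 1 and 3 and DEX replicate 3. The DEX replicate 1 peak shared none with that of TNFDEX replicate 1. Heights in this region thus compare peaks that lie in part at different positions.

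**Figure D1:**
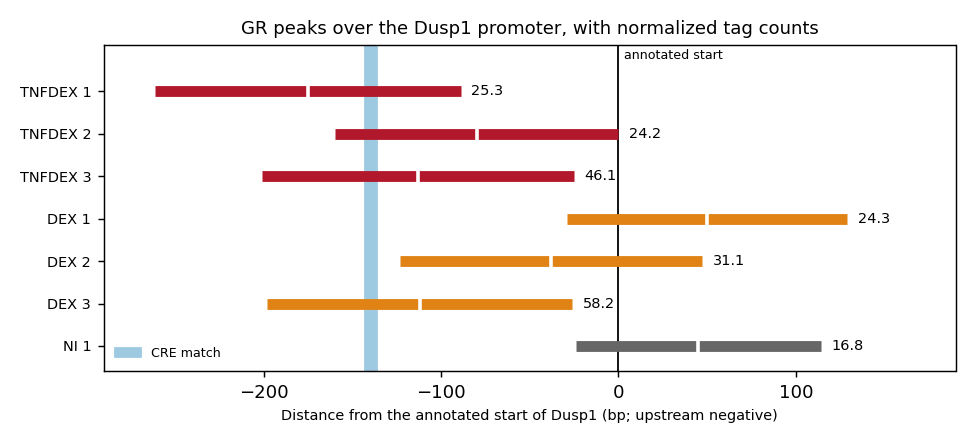
GR peaks over the Dusp1 promoter in the 7 libraries with a call (rows; TNFDEX red, DEX orange, NI grey), with position relative to the annotated start in bp on the horizontal axis, bars for the called interval, white ticks for its centre and the normalized tag count beside each bar. The 3 TNFDEX peaks and DEX replicate 3 cover the CRE match (blue), while DEX replicate 1 and NI replicate 1 are centred after the start.

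Upstream of Dusp1, the region 6.4 kb before the start (chr17:26514735-26514980) was the most widely called. It had 26.1, 16.8 and 32.9 in TNFDEX, 17.3 and 14.2 in DEX replicates 2 and 3, 9.1 in TNF replicate 1, and 8.9 and 13.5 in NI replicates 1 and 2. The TNFDEX values lay above the TNF and NI values and overlapped those of DEX.

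A pair of regions farther out was called only with Dex, as were 28 of the 50 regions at the phosphatases (56.0%) and 56.8% of the series. The region 26.9 kb upstream (chr17:26535243-26535437) had 12.5 and 18.5 in TNFDEX replicates 2 and 3 and 11.4, 19.9 and 12.9 in DEX. Its neighbour 27.5 kb upstream (chr17:26535818-26536032) had 26.1, 11.7 and 15.6 in TNFDEX and 11.2 and 16.4 in DEX replicates 2 and 3. Both lie nearer to the span of Ergic1, 25.4 kb and 24.8 kb from it, than to Dusp1.

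Closer in, the region 4.2 kb upstream (chr17:26512613-26512806) was called only in TNFDEX replicates 2 and 3, at 35.2 and 40.7. Both have the high mitochondrial share, and TNFDEX replicate 1, with the low share, had no call there. The region 1.0 kb upstream (chr17:26509392-26509589) had 35.3 in TNFDEX replicate 1 and 24.1 in DEX replicate 3.

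Dusp4, a nuclear enzyme, had mean peak numbers within 50 kb of 2.0 in TNFDEX, 2.33 in DEX, 2.0 in TNF and 2.0 in NI. By library, the TNFDEX libraries had 5, 0 and 1 peaks, the DEX libraries 1, 5 and 1, the TNF libraries 4 and 0, and the NI libraries 2, 4 and 0. Calls at 8 of the 10 regions came only from libraries with the low mitochondrial share, a split that no label names as a batch. The window also takes in part of Tnks, and the strand of Dusp4 was not used here, so positions are given from its lower or higher coordinate end.

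At the lower end of Dusp4, a region 0.2 kb outside the gene (chr8:34807308-34807490) was called only without Dex, at 19.8 in TNF replicate 1 and at 12.4 and 17.4 in NI replicates 1 and 2. No TNFDEX or DEX library had a call there. In that order the peaks were 4.58, 7.18 and 4.03 times the input, where a call needed at least 4. Over the series 26.0% of regions were called only without Dex. The region 46.9 kb below that end (chr8:34760523-34760802) had 13.3 in TNFDEX replicate 1, 11.9 and 13.8 in DEX replicates 1 and 2, 12.2 in TNF replicate 1 and 9.7 in NI replicate 2, a narrow range that runs through all 4 groups.

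The region 25.4 kb below the lower end of Dusp4 (chr8:34782044-34782286) was weak, with 10.0 and 7.4 in TNFDEX replicates 1 and 3, 10.7 in DEX replicate 2 and 9.6 in TNF replicate 1. Inside Tnks, 26.0 kb above the higher end (chr8:34845792-34846109), the value was 12.0 in TNFDEX replicate 1 and 23.5 and 9.9 in DEX replicates 2 and 3. The remaining regions of Dusp4 were each called in at most 1 library of a group.

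Dusp5, the nuclear ERK phosphatase, had a site that was called in all 4 groups, though in every library only in DEX. Its mean height in DEX lay above 49.4% of the regions called in every DEX library. The region 17.4 kb upstream (chr19:53511681-53511902) had 39.8 and 28.4 in TNFDEX replicates 1 and 3, 19.3, 29.1 and 22.0 in DEX, 27.9 in TNF replicate 1, and 10.9 and 21.7 in NI replicates 1 and 2. The ranges overlapped, so a call there did not separate libraries with Dex from those without it.

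Of the regions of the series 56.8% were called only with Dex, and so was a second region of Dusp5. It lies 25.5 kb after the start and 12.8 kb beyond the other end of the gene (chr19:53554535-53554755), with 24.5 and 6.6 in TNFDEX replicates 1 and 3 and 9.4, 12.7 and 6.9 in DEX. The values of 6.6 and 6.9 are near the lowest heights called in the libraries, 5.4 to 6.6. Within 50 kb of Dusp5 the TNFDEX libraries had 7, 0 and 3 peaks, the DEX libraries 2, 4 and 2, the TNF libraries 1 and 0, and the NI libraries 1, 2 and 0. At the Dusp5 promoter, TNFDEX replicate 1 had 11.6 and NI replicate 2 had 9.7, in regions that did not overlap. Of the 9 regions, 3 (33.3%) were called in TNFDEX replicate 1 alone, against 14.2% of the series.

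Dusp6, the cytoplasmic ERK phosphatase, was the only one of the 5 genes without a GR peak in any NI library. That state is common, since only 54.0% of all protein-coding genes had an NI peak within 50 kb. Within 50 kb the TNFDEX libraries had 9, 1 and 1 peaks, the DEX libraries 2, 4 and 3, the TNF libraries 3 and 0, and the NI libraries 0, 0 and 0.

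The tallest peak of the set stood 30.2 kb upstream of Dusp6 (chr10:99232960-99233158), at 83.8, 18.8 and 37.4 in TNFDEX, 40.2, 61.2 and 46.1 in DEX and 23.8 in TNF replicate 1. The mean was 46.7 ± 33.5 in TNFDEX and 49.2 ± 10.8 in DEX (SD, n = 3 each), and the TNFDEX values spread to both sides of the DEX values. Among the 3815 regions of the series called in every DEX library and no NI library it ranked 737 by mean height in DEX, against a median of 23.6 for those regions.

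Beside it, a region 21.0 kb upstream of Dusp6 (chr10:99242157-99242379) had 20.3 and 34.7 in DEX replicates 1 and 2 and 19.8 in TNF replicate 1, and the adjacent region 21.2 kb upstream (chr10:99241932-99242119) had 36.5 in TNFDEX replicate 1 and 15.5 in DEX replicate 3. The stretch printed above was called in TNFDEX replicate 1 only, at 46.4, with 10 input tags and a height 5.38 times that of the input. That is the highest number of input tags under any peak at the phosphatases, where the median was 2.0. Of the 11 regions of Dusp6, 4 (36.4%) were called in TNFDEX replicate 1 alone, against 14.2% of the series.

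Dusp10, the phosphatase of p38 and JNK, had binding in more than 1 library only at a distance, on either side, and none at its promoter. Peaks inside the gene came from TNFDEX replicate 1 alone, at 12.4 and 27.4. A peak 10.4 kb upstream came from NI replicate 2 alone, at 7.7. The region 100.3 kb upstream (chr1:183933929-183934139) was the most often called of all 50, in 9 libraries: 26.1, 10.9 and 27.5 in TNFDEX, 13.4, 21.4 and 22.0 in DEX, 15.7 in TNF replicate 1, and 8.9 and 21.7 in NI replicates 1 and 2. These ranges overlapped in all 4 groups. NI replicate 3 had 8.2 in the adjacent region chr1:183934387-183934535. With peaks joined within 350 bp, an alternative chosen after seeing the data, these regions became 1. It was called in 10 libraries, among them every DEX and every NI library.

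Far downstream of Dusp10 lay the only one of the 50 regions that was called in all 3 TNFDEX libraries and in no other. It is 226.6 kb after the start of Dusp10 and 185.3 kb beyond the other end of the gene (chr1:184260865-184261041), and had 49.8, 40.3 and 67.4 in TNFDEX, with no call in any DEX, TNF or NI library. The mean was 52.5 ± 13.8 (SD, n = 3), and the 3 libraries include both mitochondrial shares. These heights were 14.42, 11.67 and 19.54 times the input. Among the 233 regions of the series with calls in every TNFDEX and no DEX library it ranked 5 by mean height, against a median of 13.2.

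Next to that region of Dusp10, chr1:184261215-184261409 had 46.4 in TNFDEX replicate 1, 18.4 in DEX replicate 2 and 10.6 in TNF replicate 1. With neighbouring peaks joined where their edges lay within 350 bp, an alternative chosen after seeing the data, the 2 regions became 1 and no longer separated TNFDEX from DEX. The remaining DEX libraries still had no call in the joined region. A weaker region 136.2 kb upstream of Dusp10 (chr1:183898113-183898376) had 6.6 and 7.4 in TNFDEX replicates 1 and 3 and 7.6 in DEX replicate 2.

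Within 200 kb of Dusp10 the TNFDEX libraries had 7, 2 and 3 peaks, the DEX libraries 2, 3 and 1, the TNF libraries 2 and 0, and the NI libraries 2, 3 and 3. Of its 14 regions, 6 (42.9%) were called only in libraries with Dex, 6 (42.9%) only in libraries without it and 2 (14.3%) in both. Over the series these shares were 56.8%, 26.0% and 17.2%.

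**Figure D2:**
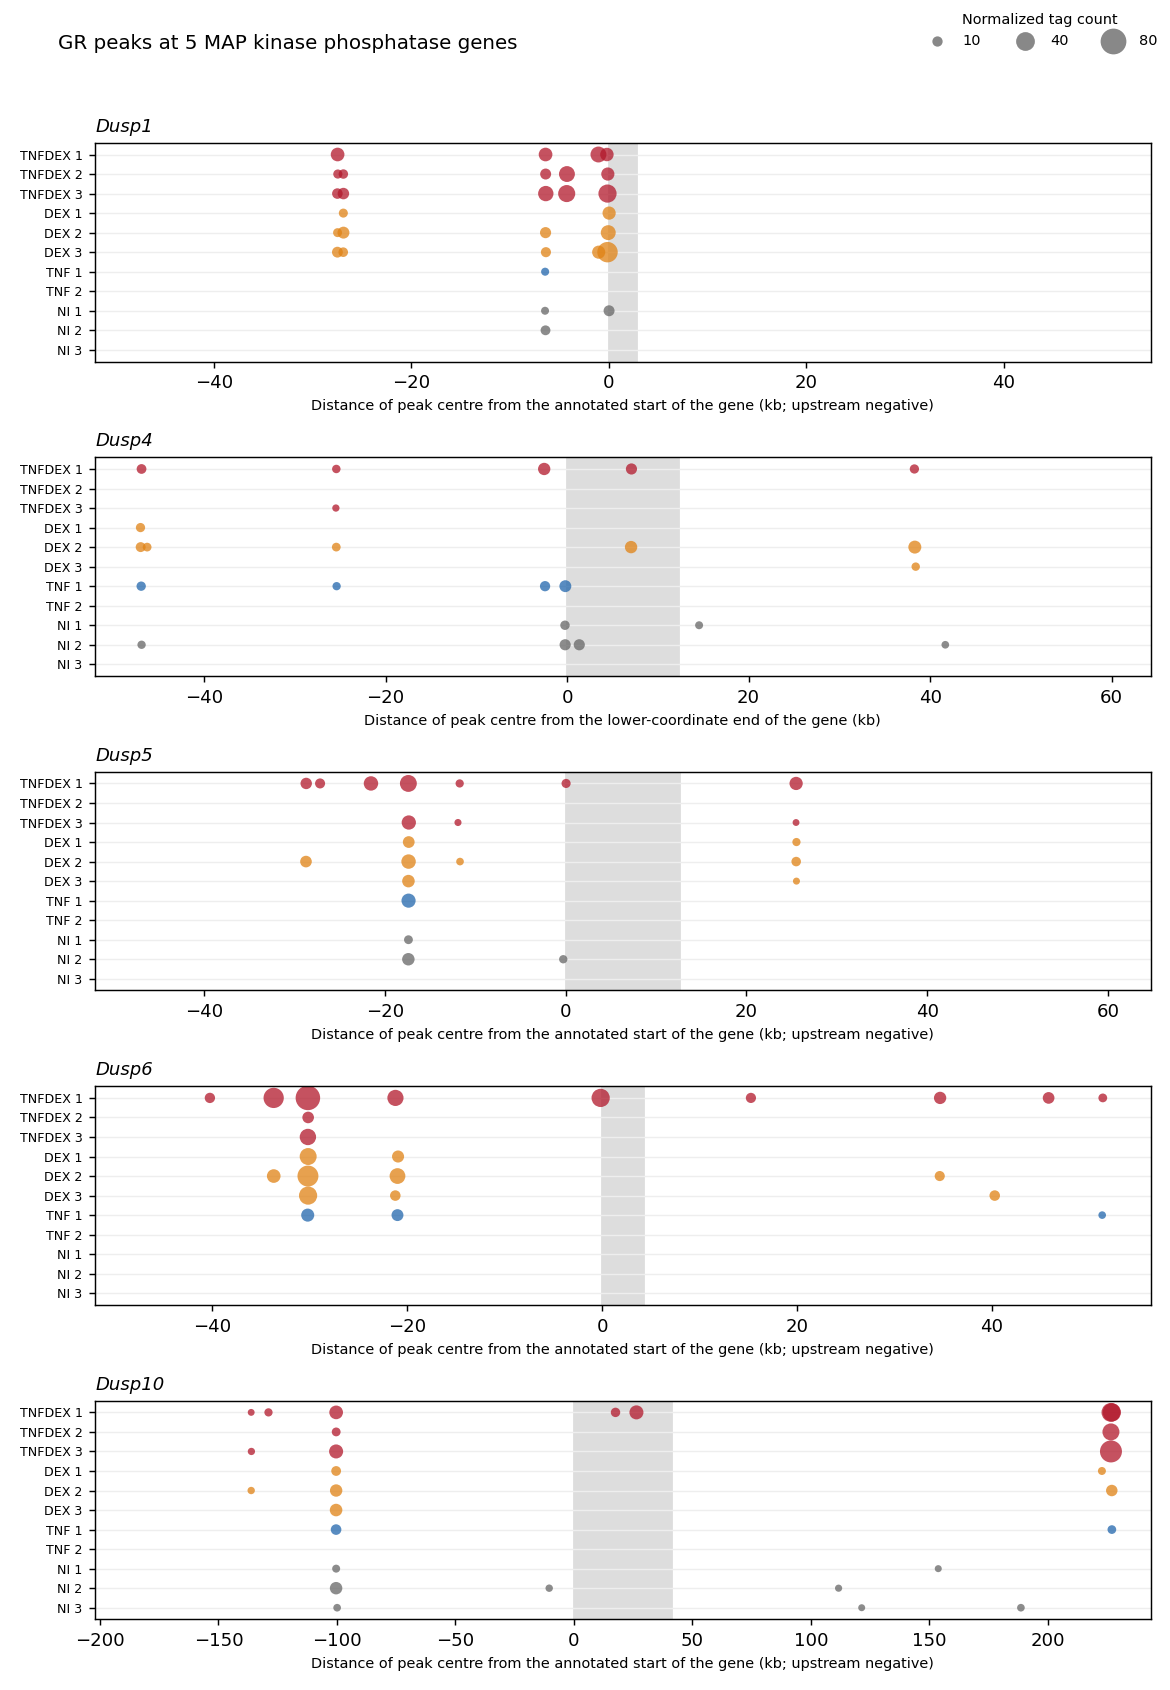
GR peaks around each gene (panels) in the 11 libraries (rows, coloured by group: TNFDEX red, DEX orange, TNF blue, NI grey), placed by distance in kb with the gene shaded and with circle area proportional to the normalized tag count. Dusp6 has no circle in the NI rows, and the large circles at the right edge of the Dusp10 panel belong mainly to TNFDEX, at 40.3 to 67.4.

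**Figure D3:**
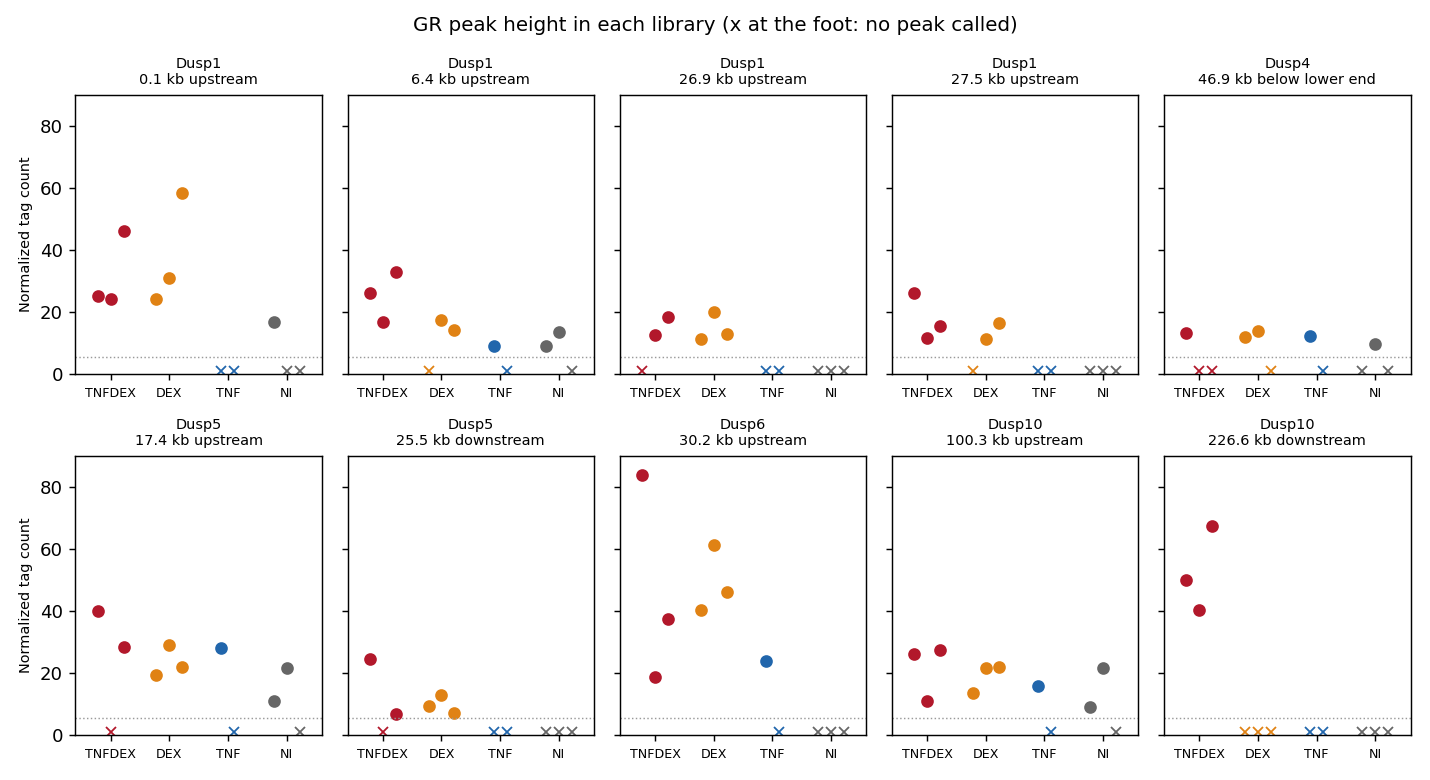
Normalized tag count (vertical axis) in each library of the 4 groups at the 9 regions called in 5 or more libraries and at the distal Dusp10 region, with crosses at the foot for libraries without a call and a dotted line at the lowest height of any called peak, 5.4. At the Dusp1 start and 30.2 kb upstream of Dusp6 all 6 libraries with Dex have points, while at the distal Dusp10 region the 3 TNFDEX libraries alone do.

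To compare Dex alone with no agent, regions were counted that were called in every DEX and no NI library, whatever the TNF libraries showed. This held for 3 of the 35 regions with a call in either group (8.57%), namely those 30.2 kb upstream of Dusp6, 26.9 kb upstream of Dusp1 and 25.5 kb after the start of Dusp5. Over the series it held for 12.9% of 29559 regions, so the share at the phosphatases was no higher than the background. The reverse pattern, every NI and no DEX library, was met by 0 of the 35 and by 0.0237% of the series. The Dusp1 start missed the first pattern through NI replicate 1. Only the Dusp6 region kept that pattern with peaks at least 8-fold over input or with equal numbers of peaks per library. It was met by 5 regions without DEX replicate 1 and by 4 with peaks joined within 350 bp.

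For TNF given before Dex, 1 of 39 regions (2.56%), the distal Dusp10 region, was called in every TNFDEX and no DEX library, against 0.663% of 35162 regions. No region at the phosphatases had the reverse pattern, which 0.0626% of the series had. Every TNFDEX and no TNF library was the pattern of 3 of 37 regions (8.11%), the Dusp1 start, the region 27.5 kb upstream of Dusp1 and the distal Dusp10 region, against 11.6% of 34014. The opposite, every TNF and no TNFDEX library, was met by 0 of them and by 0.226% of the series. Between TNF and NI 0 of 22 regions separated the groups in either direction, against 0.565% called in every TNF and no NI library and 0.0439% the other way over 20513 regions. TNF replicate 2 had no peak at any of the genes, so no region there could be called in every TNF library. Without that library, 6 regions at the phosphatases were called in TNF replicate 1 and no NI library.

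Peak height could be compared by test only where every library of both groups had a call. For TNFDEX against DEX that left 4023 regions, 3 of them at the phosphatases, and limma with Benjamini-Hochberg adjustment over all 4023 found 1 higher (0.0249%) and 0 lower (0.0%), with 257 at an unadjusted p under 0.05. None of the 3 passed. The Dusp1 start averaged 31.9 in TNFDEX and 37.9 in DEX, a log2 difference of -0.36 ± 0.34 (SE, limma adjusted p = 0.853). The region 30.2 kb upstream of Dusp6 differed by -0.46 ± 0.33 (SE, limma adjusted p = 0.808). The region 100.3 kb upstream of Dusp10 averaged 21.5 in TNFDEX and 18.9 in DEX, with -0.05 ± 0.23 on the log2 scale after scaling between libraries (SE, limma adjusted p = 0.981). Before scaling, the median log2 difference of all regions was 0.14. The scaling, TMM, shifted each log2 difference by -0.15, so that the unscaled difference at the Dusp10 region was 0.10, opposite in sign to the fitted one. With the high or low mitochondrial share as a term, the difference at the Dusp1 start was -0.64 ± 0.20 (SE, limma adjusted p = 0.195).

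With regions built from shared bases, none at the phosphatases was called in every library of both groups for DEX against NI, TNFDEX against TNF or TNF against NI. Without NI replicate 3, the DEX and NI heights could be set against each other at a region of Dusp10 and a region of Dusp5. The region 100.3 kb upstream of Dusp10 averaged 18.9 in DEX and 15.3 in NI (limma log2 difference -0.15, adjusted p = 0.725), and that 17.4 kb upstream of Dusp5 averaged 23.5 in DEX and 16.3 in NI (0.03, limma adjusted p = 0.95). Scaling shifted both log2 differences by -0.56, so their unscaled values were 0.41 at Dusp10, opposite in sign to the fitted one, and 0.59 at Dusp5. The median unscaled difference over all regions of that fit was 0.54. Scaling takes out a shift shared by most regions, so the fitted differences measure departure from it. Without TNF replicate 2, 3 regions could be set against the remaining TNF library, which is assumed to vary like the others. Only the size of each difference is given for them. The region 6.4 kb upstream of Dusp1 averaged 25.3 in TNFDEX and had 9.1 in TNF (limma log2 difference 0.91, unscaled 1.42). That 30.2 kb upstream of Dusp6 averaged 46.7 in TNFDEX and had 23.8 in TNF (0.20, unscaled 0.71). That 100.3 kb upstream of Dusp10 averaged 21.5 in TNFDEX and had 15.7 in TNF (-0.17, unscaled 0.34). Over all regions of this fit the median unscaled difference was 0.52.

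The number of peaks per gene was compared between all libraries with Dex and all without it, by an exact two-sided permutation test within the libraries with and without TNF, for which the smallest possible p is 0.005. Dusp1 had 3.42 more peaks with Dex than without it (unadjusted exact p = 0.01, adjusted p = 0.14 over 17542 genes), and 2.46% of genes had an effect as large. Dusp1 was the only one of the 5 with an unadjusted p under 0.05; more peaks with Dex at that level was the outcome for 16.4% of all genes at 50 kb and 27.6% at 200 kb. After adjustment 0 of 17542 genes (0.0%) passed by this test, with 2920 at an unadjusted p under 0.05.

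The differences at the other genes were smaller, and none passed the test. They came to 2.58 peaks at Dusp6 (exact p = 0.145), 2.25 at Dusp5 (exact p = 0.125), 1.17 within 200 kb of Dusp10 (exact p = 0.465) and 0.167 at Dusp4 (exact p = 0.945). Without TNFDEX replicate 1 they were 1.25 at Dusp6, 1.33 at Dusp5, 0.417 at Dusp10 and -0.583 at Dusp4, and without TNF replicate 2 the difference at Dusp10 was 0.667. Within 200 kb, a window that takes in more peaks, Dusp6 had 8.17 more peaks with Dex (exact p = 0.02, adjusted p = 0.105). In that window Dusp1 had 7.25 more (exact p = 0.005, adjusted p = 0.0845) and Dusp5 5.67 (exact p = 0.04, adjusted p = 0.153). Permuted within the libraries of high and of low mitochondrial share as well, where the smallest p is 0.0139, the effect was 3.62 peaks at Dusp1 (exact p = 0.0278, adjusted p = 0.216) and 3.25 at Dusp6 (exact p = 0.0139, adjusted p = 0.209). In libraries with the high share Dusp1 had 5, 5 and 5 peaks with Dex and 0 and 0 without it. In those with the low share it had 4, 2 and 4 peaks with Dex and 1, 2 and 1 without it. With the same number of strongest peaks taken in each library, the effect at Dusp1 was 0.667 peaks.

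TNF had no effect on peak number that passed at any of the 5 genes. The estimates ran between -0.167 at Dusp4 and 1.08 at Dusp6 (exact p = 0.55 at Dusp6). Over all genes, 0 of 17542 passed after adjustment (0.0%), with 158 at an unadjusted exact p under 0.05, and more peaks with TNF at that level was found for 0.77% at 50 kb and 1.61% at 200 kb.

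**Figure D4:**
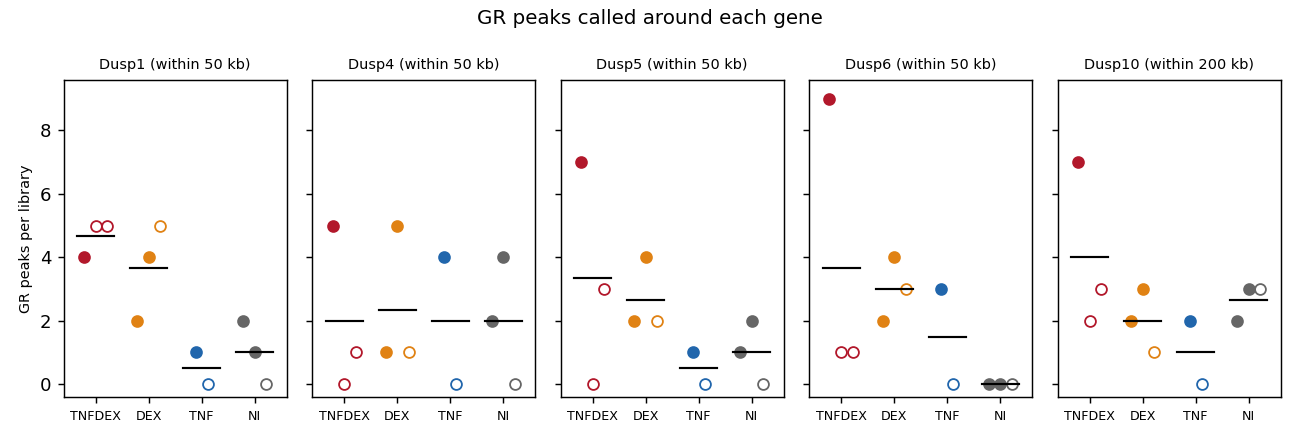
GR peaks per library (vertical axis) around each gene in TNFDEX, DEX, TNF and NI libraries, as points with black lines for the group means, and open points for libraries with the high mitochondrial share. Dusp1 has 2 to 5 peaks in every library with Dex, while the high mean of Dusp6 in TNFDEX rests on 9 peaks in replicate 1 against 1 in each of the others.

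Among other genes of the pathway, a peak within 50 kb in every one of the 6 libraries with Dex was found for 22.4% of protein-coding genes. Among the 5 phosphatases studied it was found for Dusp1 and Dusp6. Within 200 kb all 5 met it, as did 58.3% of protein-coding genes. Within 50 kb, of 5 further MKPs (Dusp2, Dusp7, Dusp8, Dusp9 and Dusp16) only Dusp16, a phosphatase of JNK and p38, met it, with 6.33 ± 4.04 peaks in TNFDEX, 5.33 ± 3.06 in DEX, 1.0 ± 0.0 in TNF (n = 2) and 0.667 ± 0.577 in NI (SD, n = 3 in the other groups). Of 10 MAP kinase genes 2 met it, Mapk13 and Mapk14, which both encode p38 kinases. All 6 feedback inhibitors of the receptor-to-ERK pathway met it (Spry1, Spry2, Spry4, Spred1, Spred2 and Errfi1), among them Errfi1, which restrains the EGF receptor, with 4.67 ± 3.51 peaks in TNFDEX, 5.67 ± 1.15 in DEX, 1.5 ± 0.707 in TNF (n = 2) and 1.33 ± 1.15 in NI (SD, n = 3 in the other groups). No gene of these lists passed the test of the Dex effect after adjustment.

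The genes whose summed peak height was most like that of each phosphatase over the 11 libraries, by Pearson's r of the log2 sum plus 1, were Eif4h, Wdr66 and Acer2 for Dusp1 (r = 0.99 each), Tmco6, Spg11 and Lmx1a for Dusp4 (0.98 to 0.99), Pou2f2, Albfm1 and Fam171a1 for Dusp5 (0.99 each), Cbr3 and Med4 for Dusp6 (0.99 each) and Maats1, Cox17 and Popdc2 for Dusp10 (0.97 each). The median r over all candidate genes was 0.64 for Dusp1, 0.43 for Dusp4, 0.56 for Dusp5, 0.66 for Dusp6 and 0.52 for Dusp10. All these sums share the libraries and their differing numbers of peaks, and Maats1, Cox17 and Popdc2 count the same peaks.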

How the data were processed

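GR was measured by ChIP-seq in 11 libraries of BWTG3 cells; the input sample has no file used here. The tools listed in the submitters' processing notes are HOMER 4.6, Bowtie 1.0.0 and CASAVA 1.8, and the build is mm10. Per the file headers, HOMER called peaks in each library against 1 input with an FDR of 0.001, a 4-fold minimum over both the input and the surrounding 10000 bp, and a Poisson p-value of 0.0001. The deposited normalized tag count is a signal scaled to 20000000 tags. The deposited fold ratios over input and local signal, tag scores, focus fractions and p-values are the authors' own. Deposited tag numbers are totals at called peaks only, so no count model was used.

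From these files, peaks sharing at least 1 base were joined across libraries, and gene spans were taken from RefSeq GRCm38.p6 (21887 protein-coding genes). Heights were tested with limma 3.58.1 (R 4.3.3) on log2 values with TMM scaling, over regions called in every library compared; no pseudocount was added. Peaks per gene were tested by exact permutation of the labels. Adjusted p-values are Benjamini-Hochberg at 0.05. Groups came from sample titles. Same-numbered DEX and NI libraries deviated together (r = 0.52, 0.54 and 0.68). For TNFDEX and DEX, r was 0.37, -0.37 and 0.58, for TNFDEX and TNF 0.51 and 0.45, and for TNF and NI 0.51 and -0.65. Both negative values were at number 2, between libraries of unlike mitochondrial share, and the cause was not tested. In fits blocked by that number, no region at the phosphatases could be fitted for DEX against NI, and none passed for TNFDEX against DEX. Alternatives covered overlap, stricter peaks, equal peak numbers, windows, scaling, filters, mitochondrial share and each library left out.

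The members and gene lists were chosen with earlier results of these data known. Regions were described singly when called in at least 2 libraries of a group, others where a paragraph turned on them; the 3 most alike genes had a peak in at least 6 libraries, and 1 of them is not reported here. Sequences of distal sites, the Dusp4 promoter and proteins were not used here, so the motif search covers promoters only. The tests were checked on simulated data. P-values measure the spread between these libraries.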

Additional observations from a re-analysis of the deposited data

How the results depend on the processing

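At an adjusted p under 0.05, 0 regions at the phosphatases and 0 genes passed under every alternative run. These zeros do not show that an effect was absent. Most fits of DEX against NI, TNFDEX against TNF and TNF against NI had no phosphatase region to test. The exact test allowed no p below 0.005, and the smallest adjusted p of any gene within 50 kb was 0.115 for Dex in the main setting. With the replicate number as a block, limma called 15 regions of the whole series higher and 0 lower in TNFDEX than in DEX, and none of these was at a phosphatase. Regions of the series called higher numbered 0 with library totals only, 0 with a mean height of at least 20, 2 with a pseudocount of 1, 2 with peaks at least 8-fold over input, and 28 (and 1 lower) with the mitochondrial share as a term; leaving out 1 library gave 0 to 17 higher and 0 to 7 lower, the most without DEX replicate 3.

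The 3 regions called in every DEX and no NI library became 1, at Dusp6, with stricter peaks or with equal peak numbers. Joining peaks within 350 bp, the alternative chosen after seeing the data, gave 4. The regions 21.0 and 21.2 kb upstream of Dusp6 then became 1 region, called in every DEX and no NI library. With a library left out, 3 to 5 regions had this pattern (5 without DEX replicate 1). Without NI replicate 3 the reverse pattern went to 1 (range 0 to 1), at Dusp4. The distal Dusp10 region was the only one to separate TNFDEX from DEX; joining peaks within 350 bp left 0, and leaving out a library gave 1 to 2 (2 without TNFDEX replicate 1, the second being 4.2 kb upstream of Dusp1), with 0 to 1 in reverse (without DEX replicate 3, at Dusp6). TNFDEX against TNF gave 1 with equal peak numbers, at Dusp10, and 3 to 6 with a library left out (5 without TNFDEX replicate 1 or 2, 6 without TNF replicate 1), with 0 to 2 in reverse (2 without TNF replicate 2). TNF against NI gave 0 to 6, all 6 without TNF replicate 2.

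Differences that did not pass also changed sign. In height between TNFDEX and DEX, the Dusp10 region came to 0.10 with library totals only and -0.17 to 0.07 with a library left out, and the Dusp1 start to -0.55 to 0.01. The Dex effect on peak number came to -0.667 within 25 kb and -0.917 with equal peak numbers at Dusp4, -0.583 with equal numbers at Dusp5, and -0.333 within 100 kb and -0.333 with equal numbers at Dusp10; a library left out gave -0.833 to 1.17 at Dusp4. The TNF effect came to -0.333 with equal numbers at Dusp1; 0.0833 with stricter peaks and 0.625 within libraries of like mitochondrial share at Dusp4; -0.0833 within 25 kb, with stricter peaks and with equal numbers at Dusp5; and -0.333 within 100 kb, with stricter peaks and with equal numbers at Dusp10. Leaving out a library gave TNF effects of -0.167 to 0.583 at Dusp1, -1.17 to 0.833 at Dusp4, -0.833 to 0.917 at Dusp5, -0.25 to 1.83 at Dusp6 and -0.583 to 0.667 at Dusp10. The cause was not tested.

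The lowest heights called in the libraries were 5.4 to 6.6, so weaker binding was not detectable. The libraries did not rank alike by depth and by number of peaks. DEX replicate 2 had 13021 peaks at 39228805 tags and NI replicate 3, which differs in treatment, had 2524 peaks at 41272106 tags. The TNFDEX libraries were the deepest, with 48225044, 51141996 and 48641690 tags, against 46425427 in DEX replicate 3, the next deepest. The part of depth in the results was not tested. Heights at uncalled sites were not analysed here.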
